A study of Rattus norvegicus with 12 samples.

Results

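Tau, the stathmins and 5 further genes of the neuronal microtubule system were followed in F11 cells at 2, 4, 24 and 48 h of forskolin. The 10 genes were Mapt (tau), Map1b, Map2, Tubb3, Stmn1, Stmn2, Stmn3, Stmn4, Dcx and Dpysl2. They were found by gene name on a rat oligonucleotide array, where 17 of 41012 distinct probes carried these names, so that they made up 10 of 35524 genes or transcripts. Of the 17 probes, 16 passed the background filter, and each of the 10 genes kept at least 1 probe. The filter asked for a signal well above background, in green or in red, on every array of some time point.

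Microtubules are polymers of alpha and beta tubulin that carry transport along axons and stiffen them. Tau, MAP1B, MAP2 and doublecortin (Dcx) bind the polymer and stabilize it, and CRMP2, the product of Dpysl2, binds tubulin dimers and promotes assembly. The stathmins do the opposite: they hold tubulin dimers out of the polymer and favour disassembly. Stathmin 1 is abundant in dividing cells as well as in neurons, whereas stathmin 2 (SCG10), stathmin 3 (SCLIP), stathmin 4 (RB3) and the beta tubulin Tubb3 are known as neuronal proteins.

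F11 cells descend from a fusion of rat sensory neurons (of the dorsal root ganglion) with a mouse neuroblastoma line. They serve as a model of sensory neurons. The array is a rat array, and whether mouse transcripts added to the signal of a probe was not tested. Each of the 12 arrays compared, on the same slide surface, green-labelled (Cy3) RNA of forskolin-treated cells with red-labelled (Cy5) RNA of a common reference. The treated cells had spent 3 h in medium with 0.5% serum and then received forskolin at 10 µM, a compound from a plant that switches on adenylyl cyclase and so raises cyclic AMP. Each of the 4 times of treatment had 3 arrays. The reference cells had the same 3 h of low serum and no forskolin, so no array showed untreated cells at 24 or 48 h, and hours in culture and forskolin cannot be told apart. All arrays had the same dye orientation, each slide held 1 array of each time point, and a time point always had the same position on its slide. The labels do not say whether the 3 replicates were separate cultures, so the spread and the p-values may cover technical error only, and the ratios leave out the reference's own spread.

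The 3 probes below read through an open frame and belong to the related genes Stmn1 and Stmn4 and to the long gene Map1b. The Stmn4 probe stood for its gene in the tests, whereas brighter probes, not printed, stood for Stmn1 and Map1b. Positions are those of the files on build rn3, 5′ to 3′ on the strand given.
Stmn1 probe 2, chr5:153241158-153241217, plus strand: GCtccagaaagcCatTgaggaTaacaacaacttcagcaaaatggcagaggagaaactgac
Stmn4, chr15:45810058-45810117, plus strand: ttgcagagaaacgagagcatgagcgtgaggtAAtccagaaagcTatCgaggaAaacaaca
Map1b probe 3, chr2:30341456-30341515, minus strand: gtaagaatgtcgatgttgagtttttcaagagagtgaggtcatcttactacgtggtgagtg
The first 29 bases of the Stmn1 probe line up without a gap with the last 29 of the Stmn4 probe, with 24 bases identical and 5 different (capitals). The stretch lies in what both genes share, the stathmin-like domain, and the probes of the other stathmins had no such match to each other. Another Map1b probe, probe 4, spans 59624 bases of the genome for its 60 letters and so crosses at least 1 intron.

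Ratios are given as log2 of forskolin over reference, and a gene was called at an adjusted p under 0.05 (limma, Benjamini-Hochberg over all genes tested). The log2 values that the authors deposited run the other way, reference over forskolin. The brightest kept probe stood for a gene. Several signs against the reference turned when the dyes were scaled by median centring, taken relative to the median of all genes: Stmn3 and Map2 at 4 h, Tubb3 at 24 h, and Map1b, Stmn2, Stmn3 and Dpysl2 at 48 h. The 15 called steps between time points kept their sign under that scaling and had the same sign within each of the 3 slides.

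The tau gene showed the widest range of the 10, low at 4 h and high at 24 and 48 h. Mapt gave log2 ratios of -0.04, 0.03 and 0.10 on the 3 arrays at 2 h, of -0.31, -0.44 and -0.18 at 4 h, of 1.29, 1.42 and 1.49 at 24 h, and of 0.96, 1.32 and 1.29 at 48 h. All 6 late arrays lay above all 6 early ones, and the arrays at 24 and 48 h overlapped. Its mean was 1.40 ± 0.10 at 24 h (SD, n = 3), a level 2.64-fold that of the reference (adjusted p = 9.92e-10, limma), and 1.19 ± 0.20 at 48 h, or 2.28-fold. At 4 h it fell to 1.24-fold below the reference (adjusted p = 0.0017). The step of 24 h against 4 h was 1.71 on the log2 scale (95% interval 1.51 to 1.92, adjusted p = 9.15e-09), and that of 4 h against 2 h was -0.34 (adjusted p = 0.027). The smaller step was no longer called without replicate 2 or 3 at 2 h or replicate 1 or 2 at 4 h (adjusted p = 0.063 to 0.12), or with no offset added to the background-corrected intensities (offset 0, adjusted p = 0.055). From 24 to 48 h the difference of -0.21 did not pass (95% interval -0.42 to -0.0041 before adjustment, adjusted p = 0.18). A second tau probe, on the same transcript, gave means of 0.19, -0.33, 1.21 and 0.97 at 2, 4, 24 and 48 h, and was called lower at 4 h and higher at 24 and 48 h like the first.

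Map1b, a microtubule-associated protein of growing axons, was lowest at 4 h and highest at 48 h by its brightest probe, and its sign at 48 h turned under median centring (-0.51 relative to all genes). That probe read -0.36, -0.44 and -0.42 at 2 h, -0.59, -0.79 and -0.62 at 4 h, 0.08, 0.05 and 0.18 at 24 h, and 0.21, 0.44 and 0.49 at 48 h. No 2 neighbouring time points overlapped, and all 3 steps were called: -0.26 for 4 h against 2 h (adjusted p = 0.039), 0.77 for 24 h against 4 h (adjusted p = 3.13e-06) and 0.28 for 48 h against 24 h (adjusted p = 0.029, limma). The first was no longer called without any 1 array of 2 h or without replicate 2 or 3 at 4 h (adjusted p = 0.067 to 0.16), and the last without replicate 1 or 2 at 24 h or replicate 2 or 3 at 48 h (adjusted p = 0.081 to 0.11). Both were also lost with offset 0, with the scanner software's processed signals, with no filter and with the mean of the kept probes (adjusted p = 0.057 to 0.84), and the first with the authors' deposited values (adjusted p = 0.059). The 4 Map1b probes did not give 1 picture. At 2 h the brightest probe was called lower at -0.41, while probes 1, 3 and 4 were at 0.14, 0.07 and 0.19 and not called. At 4 h the brightest probe was called lower at -0.67, while probes 1 and 3 were called higher at 0.17 and 0.22, and probe 4 was at 0.14 and not called. At 24 h the brightest probe was at 0.10 and not called, while probes 1, 3 and 4 were called higher at 0.69, 0.24 and 0.38. The mean of the kept probes was called higher there as well (0.35, adjusted p = 0.00016, limma). At 48 h probe 1 was at 0.89, probe 4 at 0.37 and both were called higher, whereas probe 3 was at 0.08 and not called. The step of 24 h against 4 h was called in probe 1 as well (0.52, adjusted p = 0.00045) and missed in probes 3 (0.02) and 4 (0.24). The lower values at 2 and 4 h were thus seen with 1 probe of 4.

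**Figure D1:**
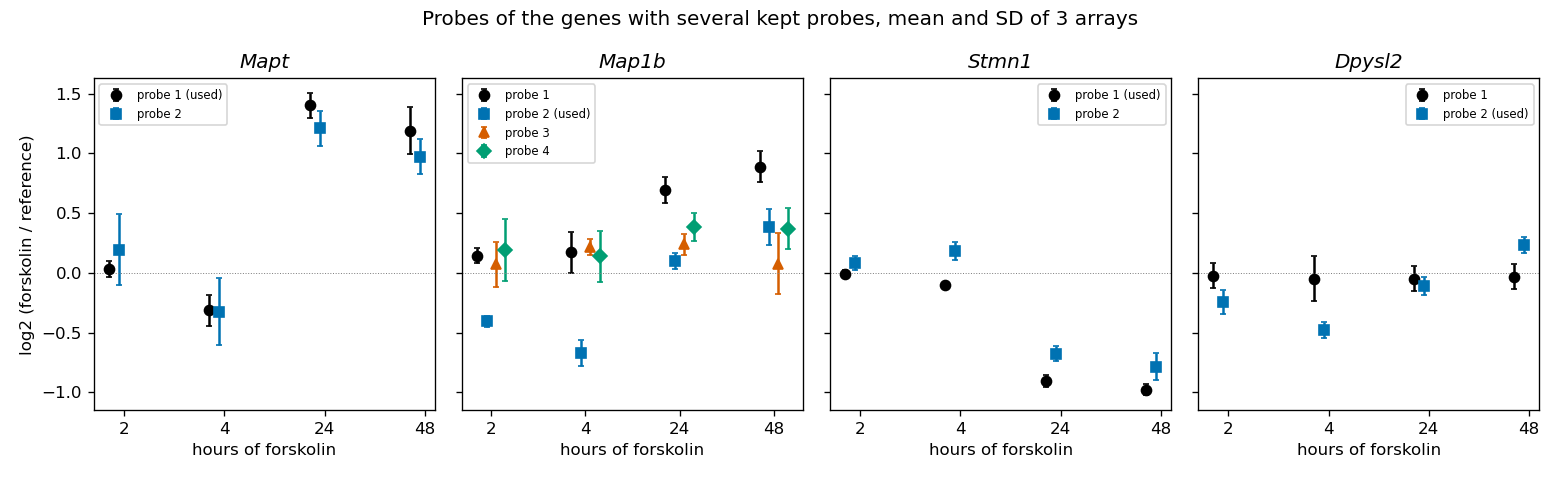
Mean log2 ratio of forskolin over reference (vertical axis) at 2, 4, 24 and 48 h for each kept probe of the genes with several, with bars for the SD of 3 arrays. The Mapt probes run together, the Map1b probe used lies at -0.67 at 4 h below the 3 others, the Stmn1 probes differ in sign at 4 h and both lie under -0.6 at 24 and 48 h, and Dpysl2 probe 1 stays between -0.05 and -0.02.

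Map2, the dendritic relative of tau, was close to background. Its kept probe was well above background in green on 11 of 12 arrays and in red on all 12, at mean log2 signals of 6.49 in the forskolin channel and 6.46 in the reference channel. A second Map2 probe, printed in 10 spots, was above background in green on 1 array and in red on none, and was not tested. The kept probe read 0.18, 0.04 and 0.04 at 2 h, -0.13, -0.13 and -0.15 at 4 h, 0.02, 0.06 and 0.14 at 24 h, and -0.0011, 0.28 and 0.01 at 48 h. It was called lower at 4 h by a narrow margin (adjusted p = 0.049, limma), a sign that turned under median centring (0.39 relative to all genes), and the call was lost with any 1 array of that time left out (adjusted p = 0.12 to 0.15). The step of 24 h against 4 h was called at 0.21 (adjusted p = 0.040) and was lost without any 1 array of 4 or 24 h (adjusted p = 0.050 to 0.14), as well as with no background correction (0.11), with the processed signals (0.70) and with no filter.

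Tubb3, the neuronal class III beta tubulin, was near the reference at 2 and 4 h and higher later, where median centring gave -0.18 at 24 h and 0.03 at 48 h relative to all genes. Its 3 arrays gave 0.04, 0.13 and 0.04 at 2 h, 0.02, -0.08 and -0.07 at 4 h, 0.48, 0.50 and 0.42 at 24 h, and 0.90, 0.69 and 0.62 at 48 h. The arrays of each of the 2 later time points lay above all arrays of the time before. The step of 24 h against 4 h was 0.51 (95% interval 0.36 to 0.66, adjusted p = 5.48e-05) and that of 48 h against 24 h was 0.27 (0.12 to 0.42, adjusted p = 0.020, limma). The second of these was no longer called without replicate 3 at 24 h (0.25, adjusted p = 0.079) or replicate 1 at 48 h (0.19, adjusted p = 0.060).

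Stmn1 was the one gene of the 10 that was called lower at 48 h. Its brightest probe read 0.03, -0.02 and -0.03 at 2 h, -0.07, -0.11 and -0.11 at 4 h, -0.92, -0.94 and -0.84 at 24 h, and -0.93, -0.99 and -1.02 at 48 h. The late arrays were all far below the early ones and overlapped with each other. The forskolin channel had a mean log2 signal of 13.57 at 48 h, against 14.55 for the reference. Stmn1 averaged -0.98 ± 0.05 at 48 h, 1.97-fold below the reference (adjusted p = 5.55e-11, limma), and its step of 24 h against 4 h was -0.80 (95% interval -0.92 to -0.69, adjusted p = 4.09e-08). From 24 to 48 h the difference was -0.07 (95% interval -0.19 to 0.04, adjusted p = 0.41).

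The second Stmn1 probe, printed above, averaged -0.68 ± 0.06 at 24 h and -0.78 ± 0.11 at 48 h, and both were called. At 4 h the probes were called in opposite directions, at -0.10 for the brightest (adjusted p = 0.043) and 0.18 for the second (adjusted p = 0.0068), so no direction is given for Stmn1 there. The brightest probe's call was lost without any 1 array of 4 h (adjusted p = 0.081 to 0.15) and without each of 5 arrays of other times (adjusted p = 0.051 to 0.056). The files also list, for the second probe, a transcript of chromosome 10 described as similar to stathmin 1 (RGD1565395). That copy's own probe averaged 0.06 at 4 h, -0.75 at 24 h and -0.85 at 48 h, and the second probe cannot separate the signal of the gene from that of the copy.

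The 3 neuronal stathmins were each called higher than the reference at 48 h, a direction that turned under median centring for Stmn2 and Stmn3. Stmn2, which marks growing and injured axons, read -0.17, -0.19 and -0.12 at 2 h, -0.22, -0.28 and -0.22 at 4 h, -0.40, -0.38 and -0.22 at 24 h, and 0.49, 0.39 and 0.53 at 48 h. It stayed below the reference on all 9 arrays up to 24 h and stood above it on all 3 at 48 h. Its step of 48 h against 24 h was 0.80 (95% interval 0.67 to 0.94, adjusted p = 2.28e-06, limma), the largest of the 10 genes in that interval, while 24 h against 4 h gave -0.09 and did not pass (adjusted p = 0.28).

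Stmn4 was dim, with mean log2 signals of 6.77 in the forskolin channel and 6.51 in the reference channel, and above background on all 12 arrays. It read -0.10, 0.16 and 0.39 at 2 h, 0.11, 0.13 and 0.02 at 4 h, 0.24, 0.05 and 0.18 at 24 h, and 0.83, 0.73 and 0.39 at 48 h. The 48 h arrays were all above those at 24 h, a step of 0.49 (95% interval 0.24 to 0.75, adjusted p = 0.012), which was lost without replicate 2 at 24 h (0.44, adjusted p = 0.056) or at 48 h (0.46, adjusted p = 0.054), and with offset 0 (0.82, adjusted p = 0.073). Stmn3 was the flattest stathmin, at 0.11, 0.12 and 0.01 at 2 h, 0.16, 0.14 and 0.08 at 4 h, 0.17, 0.05 and 0.04 at 24 h, and 0.38, 0.21 and 0.22 at 48 h. None of its steps was called, the last being 0.18 (95% interval 0.05 to 0.32, adjusted p = 0.073), and it was the only one of the 10 whose 4 time points did not differ by limma's F test (adjusted p = 0.062). With the slide as a block its last step was called (adjusted p = 0.028), and the F test called all 10 genes.

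Dcx, doublecortin of migrating young neurons, was dim and had its 1 called step in the last interval. Its arrays gave -0.01, -0.05 and 0.04 at 2 h, -0.08, -0.19 and -0.03 at 4 h, 0.11, 0.04 and -0.05 at 24 h, and 0.54, 0.43 and 0.58 at 48 h. The 48 h arrays stood apart from the other 9, with a step of 0.48 against 24 h (95% interval 0.34 to 0.62, adjusted p = 0.00019, limma). Under median centring that step was 0.35 and not called (adjusted p = 0.27).

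Dpysl2, by its bright probe, had a called step in each interval. The bright probe read -0.13, -0.28 and -0.33 at 2 h, -0.41, -0.53 and -0.50 at 4 h, -0.03, -0.12 and -0.17 at 24 h, and 0.16, 0.26 and 0.29 at 48 h, where its sign turned under median centring (-0.51 relative to all genes). No 2 neighbouring time points overlapped, and the steps were -0.24 (adjusted p = 0.031), 0.37 (adjusted p = 0.00054) and 0.35 (adjusted p = 0.0033, limma). The first was lost without replicate 1 or 2 at 2 h or replicate 2 or 3 at 4 h (adjusted p = 0.054 to 0.13), with offset 0 (adjusted p = 0.091), with no filter (adjusted p = 0.076) and with the authors' deposited values (adjusted p = 0.052). With the mean of both probes the first and the last were lost (adjusted p = 0.18 and 0.058). Its other probe was above background on 5 of 12 arrays in green and on 5 in red, largely not the same arrays. It averaged between -0.05 and -0.02 and was called at no time point.

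**Figure D2:**
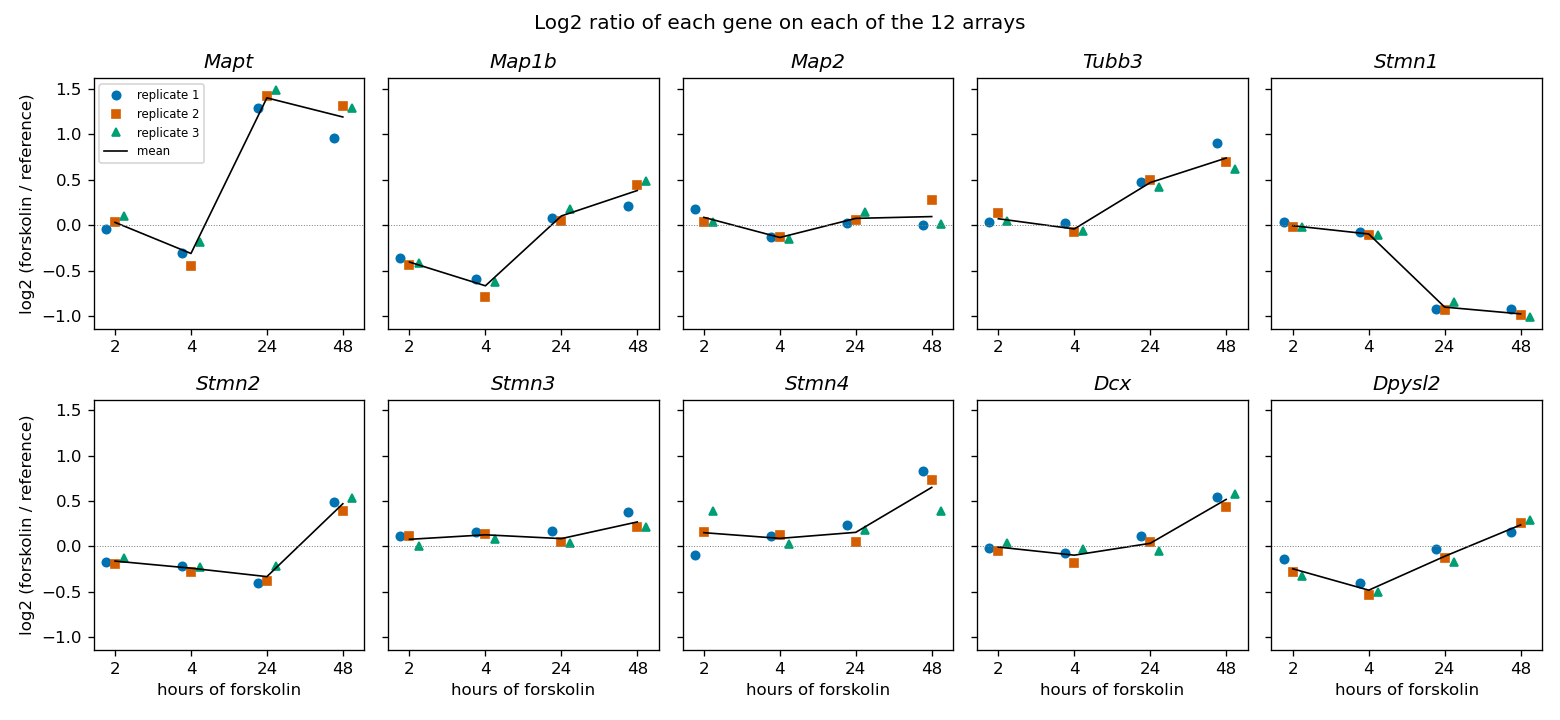
Log2 ratio of forskolin over reference (vertical axis) on each array at 2, 4, 24 and 48 h for the 10 genes, with a symbol for each replicate and a line through the means. Mapt lies at -0.31 at 4 h and at 1.40 at 24 h, Stmn1 lies at -0.90 and -0.98 at the 2 late times, and Stmn2 and Dcx stand above 0 on all 3 arrays at 48 h, a sign that turned for Stmn2 under median centring.

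Set against all genes, the 10 changed as follows. The 10 were chosen with earlier results of these data known, so these shares do not test them as a set. In the step of 4 h against 2 h, 0 were called higher and 3 lower (Mapt, Map1b, Dpysl2), where 5.55% and 10.1% of all genes tested were called (15.6% in either direction). Map1b and Dpysl2 were not called there with the mean of their kept probes. With 1 array of 2 or 4 h left out that count of 3 ranged from 0 (without replicate 2 at 2 h, or at 4 h) to 2 (without replicate 1 at 4 h), and it was 1 without replicate 1 or 3 at 2 h or replicate 3 at 4 h. In the step of 24 h against 4 h, 5 were called higher (Mapt, Map1b, Map2, Tubb3, Dpysl2) and 1 lower (Stmn1), where 21% and 17.8% of all genes were (38.7% in either direction). In the step of 48 h against 24 h, 6 were called higher (Map1b, Tubb3, Stmn2, Stmn4, Dcx, Dpysl2) and 0 lower, where 8% and 6.79% of all genes were (14.8% in either direction). The median step of the 10 was -0.10, 0.17 and 0.28, against -0.0076, 0.0044 and -0.0026 over all genes. In the F test 9 of 10 were called, Map2 by a narrow margin (adjusted p = 0.047, limma), and 53.3% of all genes. With 1 array left out that count of 9 ranged from 8 to 9. Mapt, Map2 and Stmn1 were called between 4 and 24 h and not after, Stmn2, Stmn4 and Dcx the reverse, and whether the steps of a gene differed from each other was not tested.

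**Figure D3:**
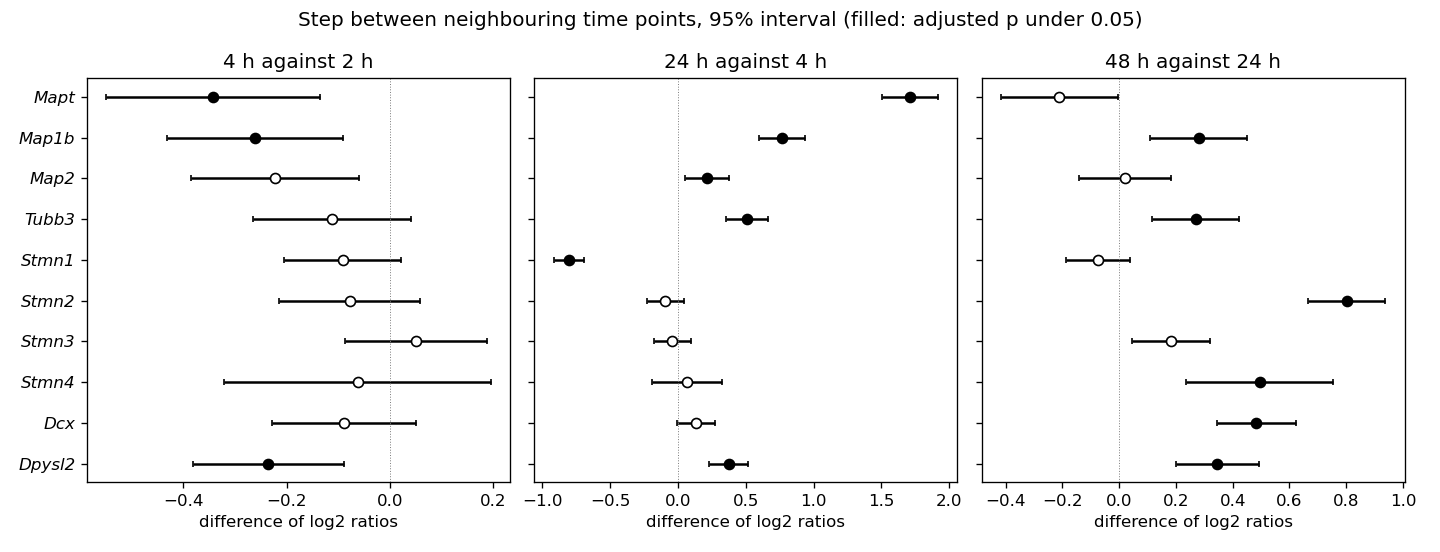
Difference of mean log2 ratios between neighbouring time points (horizontal axis, each panel with its own scale) for the 10 genes, with 95% intervals, filled where the adjusted p was under 0.05. Mapt at 1.71 and Stmn1 at -0.80 stand out in the step of 24 h against 4 h, and Stmn2 at 0.80 in the step of 48 h against 24 h.

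The 4 comparisons with the reference share that reference, and their values are therefore only set side by side. At 2 h, 0 of the 10 were called higher and 3 lower (Stmn2, and Map1b and Dpysl2 by their brightest probe alone), where 9.99% and 18.3% of all genes were (28.3% in either direction). At 4 h, 1 was called higher (Stmn3) and 6 lower (Mapt, Map2, Stmn2, and Map1b, Stmn1 and Dpysl2 by their brightest probe alone), where 19.5% and 30.1% of all genes were (49.6% in either direction). Map2, Stmn1 and Stmn3 were not called at 4 h without any 1 array of that time (adjusted p = 0.053 to 0.15, limma). Stmn2 at 2 h was not called without replicate 1 (adjusted p = 0.060) or replicate 2 (adjusted p = 0.094). At 24 h, 2 were called higher (Mapt, Tubb3) and 2 lower (Stmn1, Stmn2), where 24.1% and 29.2% of all genes were (53.3% in either direction). Map1b was not called at 24 h by its brightest probe, while each of its other probes was called higher. At 48 h, 8 were called higher (Mapt, Map1b, Tubb3, Stmn2, Stmn3, Stmn4, Dcx, Dpysl2) and 1 lower (Stmn1), where 26.9% and 30.3% of all genes were (57.2% in either direction).

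These directions against the reference depend on how the 2 dyes were brought to 1 scale, and so do the counts of called steps, though not their signs. With median centring in place of the intensity-dependent loess fit, the median of all genes lay at -0.57, -0.58, -0.45 and -0.45 at the 4 times, and the share of higher genes among those called at 48 h was 5.48%, against 47.0% with loess. Relative to that median, 4 of the 9 genes called at 48 h changed sign: Map1b to -0.51, Stmn2 to -0.07, Stmn3 to -0.49 and Dpysl2 to -0.51. Tubb3 turned to -0.18 at 24 h and stood at 0.03 at 48 h, Stmn3 turned to -0.53 and Map2 to 0.39 at 4 h. Mapt kept its sign at 24 h (0.91) and 48 h (0.68), as did Stmn1 (-1.75 and -1.86), and Stmn4 (0.79) and Dcx (0.54) at 48 h. Before the median of all genes was subtracted, median centring did not call Mapt (0.22, adjusted p = 0.075, limma) or Dcx (0.09, adjusted p = 0.39) at 48 h. Of the 15 called steps, 0 changed sign relative to the median of all genes under that centring. Of the 10 genes, however, it called 0 in the step of 4 h against 2 h, and 4 higher and 1 lower in that of 24 h against 4 h. In the step of 48 h against 24 h it called 1 higher (Stmn2) and 0 lower.

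**Figure D4:**
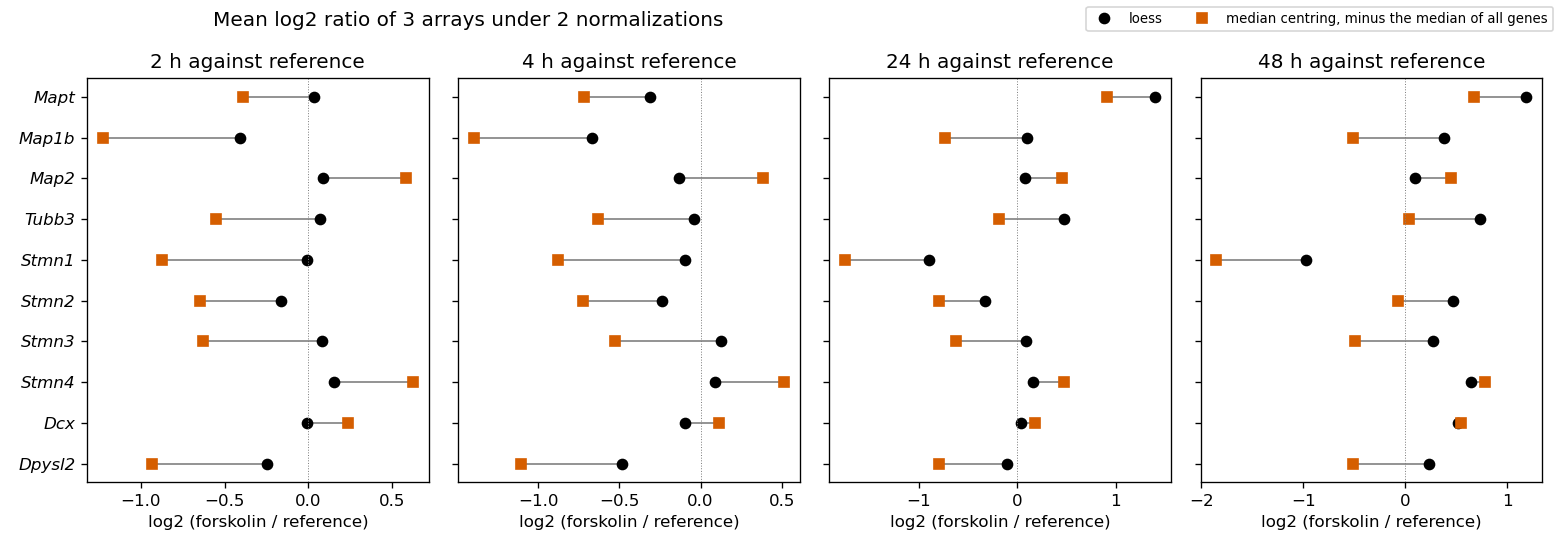
Mean log2 ratio of 3 arrays (horizontal axis, each panel with its own scale) for the 10 genes against the reference at 4 times, with loess (black circles) and with median centring less the median of all genes (orange squares). At 48 h Map1b, Stmn2, Stmn3 and Dpysl2 lie on opposite sides of 0 under the 2 settings, and Mapt, Stmn1, Stmn4 and Dcx on the same side.

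Beside Tubb3, the tubulins were called in both directions, in step counts near the shares of all genes. Of 10 measured (of 14 listed), 2 were called higher and 2 lower in the step of 24 h against 4 h, and 0 higher and 1 lower from 24 to 48 h, with a median step of -0.05 and -0.06. Of all genes tested, 21% were called higher and 17.8% lower in the first of these steps, and 8% and 6.79% in the second. Tubb5, a beta tubulin of most cell types, fell by 0.29 between 4 and 24 h (adjusted p = 0.0017, limma) and stood at -0.68 against the reference at 48 h. Tubb6 rose by 0.38 in that step (adjusted p = 0.011) and stood at 0.53 at 48 h, a sign that turned under median centring (-0.13 relative to all genes). Tubb4b was at -0.54 at 48 h and its steps were not called.

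Among 14 measured relatives of tau, CRMP2 and doublecortin (of 18 listed), 5 were called higher and 2 lower in the step of 24 h against 4 h, and 2 higher and 0 lower in the next. The shares of all genes were 21% higher and 17.8% lower, and then 8% and 6.79%. Tppp3, a tubulin polymerization promoter, rose in both, by 0.71 and 0.81 (adjusted p = 2.32e-06 and 5.49e-06, limma), to 1.64 above the reference at 48 h. Map6, the protein of cold-stable microtubules, rose by 0.75 between 4 and 24 h (adjusted p = 3.49e-07), and Map1a, the adult counterpart of Map1b, by 0.27 (adjusted p = 0.014). Of 13 genes of microtubule ends and lattice (of 16 listed), 3 were called higher and 2 lower in the step of 24 h against 4 h, and 4 and 0 in the next. Clip2, a plus-end tracking protein, stood at -0.84 at 4 h and rose by 1.68 to 24 h and by 0.35 to 48 h. Mapre3 (EB3) rose by 0.43 in the first of these and Clip3 by 0.41 in the second.

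Of 22 measured motor genes (of 23 listed), 11 were called higher and 2 lower in the step of 24 h against 4 h, and 3 and 2 in the next, with median steps of 0.21 and 0.06. Over all genes 21% were called higher and 17.8% lower in the first step, and 8% and 6.79% in the next. Kif3c, a kinesin of neurons, rose in both, by 0.73 and 0.43, and Dync1h1, the dynein heavy chain, by 0.71 in the first (adjusted p = 9.41e-05, limma). Pafah1b1 (LIS1), a dynein regulator, fell by 0.68 and by 0.27. Of 17 genes of tubulin folding, modification and severing (of 22 listed), 1 was called higher and 4 lower in the step of 24 h against 4 h, and 3 and 0 in the next. Agtpbp1, which removes glutamates from tubulin tails, stood at -0.90 at 24 h and then rose by 0.36. Tbcc, a tubulin folding cofactor, rose by 0.30 in the last step, and Sirt2, a tubulin deacetylase, had no called step.

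Of 21 measured kinases and phosphatases of tau, stathmin and CRMP2 (of 25 listed), 6 were called higher and 6 lower in the step of 24 h against 4 h, and 4 and 1 in the next. All genes stood at 21% higher and 17.8% lower, and then at 8% and 6.79%. Mapk8 (JNK1) fell by 0.81 between 4 and 24 h (adjusted p = 5.16e-08, limma). Fyn rose by 0.44 in that step and fell by 0.33 in the next, and Camk2b rose by 0.29. RNA levels say nothing of the phosphorylation through which these enzymes act on tau and stathmin.

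**Figure D5:**
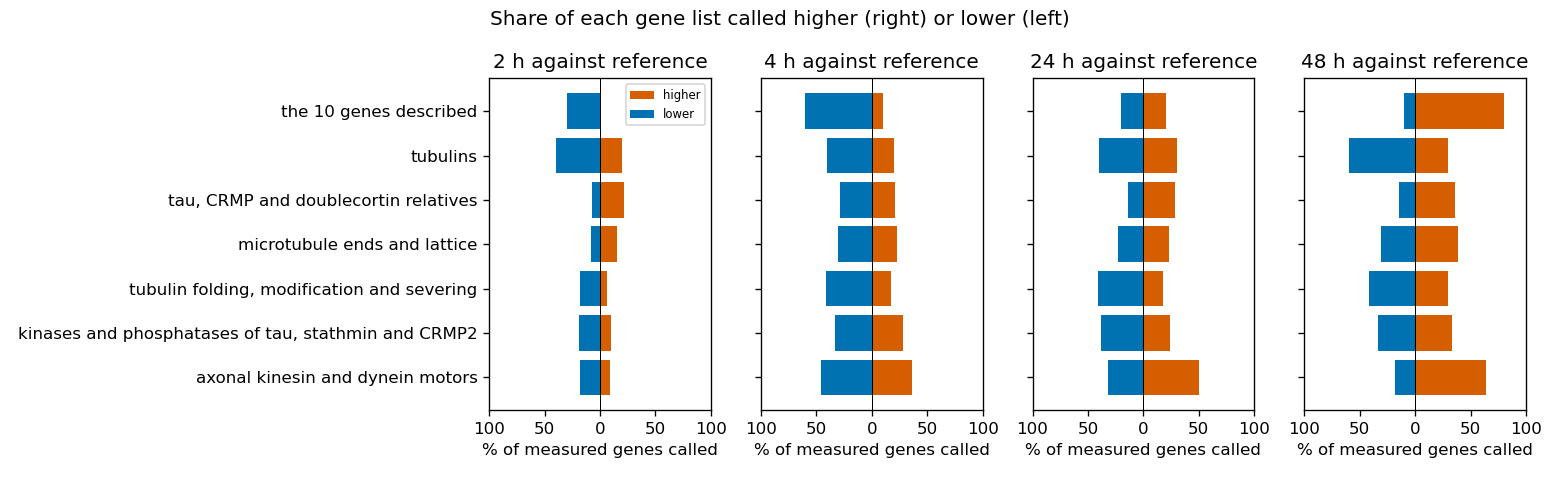
Percent of the measured genes of each list called higher (orange, to the right) or lower (blue, to the left) against the reference at 4 times, with loess. At 48 h 8 of the 10 genes described and 14 of 22 motor genes were called higher (26.9% of all genes), and 6 of 10 other tubulins lower (30.3% of all genes). With median centring 2 of the 22 motor genes were called higher.

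Markers of the cell type moved in the same intervals. Of 21 sensory neuron markers 17 were measured and 4 did not pass the background filter (Pou4f1, Ntrk2, Trpv1 and Avil). In the step of 48 h against 24 h, 11 of the 17 were called higher and 0 lower, where 8% and 6.79% of all genes were. In that of 24 h against 4 h 8 and 5 were, against 21% and 17.8% of all genes. Their summed log2 signal was 17.51 to 17.74 at 48 h in the forskolin channel, against 16.77 to 17.04 in the reference channel. Such a sum is led by the brightest markers, and the 2 channels were scaled by loess. Under median centring Prph turned from 0.92 to -0.16 at 48 h relative to all genes, while Scn9a (0.78) and Snap25 (0.94) stayed above the median of all genes. Markers of glia, fibroblasts, and leukocytes and endothelium were measured for 3, 6 and 4 of 10 each, with Gfap, S100b, Dcn, Itgam and Pecam1 among those that did not pass. At 48 h their summed log2 signals were 11.720 to 12.002 in the forskolin channel against 11.95 to 12.27 in the reference channel for glia, 11.78 to 12.29 in the forskolin channel against 11.70 to 12.16 in the reference channel for fibroblasts, and 8.36 to 8.47 in the forskolin channel against 8.39 to 8.41 in the reference channel for leukocytes and endothelium. With loess, 12 of the 17 sensory neuron markers were called higher and 2 lower than the reference at 48 h. For glia 0 of 3 were called higher and 2 lower, for fibroblasts 3 and 3 of 6, and for leukocytes and endothelium 0 and 0 of 4. Of all genes 26.9% were called higher and 30.3% lower. Among the fibroblast markers Fn1 was at -1.28, Pdgfrb at 0.86 and Col1a2 at 0.41. The part of these markers in the results was not tested, and a change in the mix of cells and a change in RNA per cell cannot be told apart.

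Over the 12 arrays the log2 ratios of Mapt correlated with those of Map1b at 0.93 and of Stmn1 at -0.95, and those of Stmn2 with Dcx at 0.91 and with Mapt at 0.34. These are descriptions over 12 arrays of 4 time points that share 1 reference. The genes most like Mapt were Col18a1, Rrbp1 and Ptgs1 (r = 0.995, 0.993 and 0.992), and those most like Stmn1 were Zfp207, Prps1 and Pclaf (0.995, 0.994 and 0.993), the last a PCNA-binding protein. Stmn2 was most like Qdpr, Dync1i1 and Crabp1 (0.982, 0.970 and 0.966) and Dcx most like Cd99l2, Pfkm and Aga (0.973, 0.973 and 0.967). Map1b came closest to Ctsb, Pigk and Fam120c, at 0.991 to 0.993, and Tubb3 to Scd, Nudt7 and Cog1, at 0.986 to 0.992. Stmn4 and Map2 had lower values, with Sumf1, Vamp7 and Glb1 at 0.931 to 0.936 for Stmn4 and Myo16, Rps6kc1 and Or2v2 at 0.855 to 0.903 for Map2.

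Promoter sequences from RefSeq (GRCr8) were at hand for 6 of the 10 genes, Map1b, Map2, Tubb3, Stmn1, Stmn3 and Dcx. Those of Stmn1 and Tubb3 are printed because these genes moved in opposite directions between 4 and 24 h. Each run is the 250 bases before the start, with matches in capitals to the GC box (CCGCCC), the CCAAT box (CCAAT), an E2F-type site (TTTGGCGC), the TATA box (TATAAA) and the cyclic AMP response element (TGACGTCA, or its core TGACG), searched on both strands.
Stmn1, chr5:151964929-151965178, plus strand: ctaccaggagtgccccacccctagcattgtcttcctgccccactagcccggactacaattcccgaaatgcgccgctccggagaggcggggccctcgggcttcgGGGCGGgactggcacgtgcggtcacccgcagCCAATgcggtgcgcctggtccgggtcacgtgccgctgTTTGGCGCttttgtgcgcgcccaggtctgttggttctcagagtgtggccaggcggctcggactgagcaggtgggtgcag
Tubb3, chr19:68365437-68365686, plus strand: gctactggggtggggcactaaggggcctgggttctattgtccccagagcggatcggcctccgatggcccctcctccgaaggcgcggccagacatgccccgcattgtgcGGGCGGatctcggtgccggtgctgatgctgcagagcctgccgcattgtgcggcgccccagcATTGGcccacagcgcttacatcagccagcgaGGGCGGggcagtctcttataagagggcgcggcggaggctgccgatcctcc
Stmn1 held 1 GC box, 1 CCAAT box and 1 E2F-type site, and Tubb3 held 2 GC boxes and 1 CCAAT box. Of 33469 rat promoters of this length 30.5% held the GC box, 34.0% the CCAAT box, 12.9% the TATA box and 0.412% the E2F-type site. The cyclic AMP response element was in none of the 6 windows, nor was its core, and 1.59% and 18.2% of all promoters held them. The motifs were chosen with these sequences in view, and a match or its absence describes the letters of the window only.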

How the data were processed

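Total RNA of 12 forskolin samples was hybridised against 1 kind of reference, and per the labels the forskolin sample carried Cy3 (green) and the reference Cy5 (red). The deposited scanner files give, per the file headers, the mean and local background intensity of 45018 spots from Feature Extraction 9.5.1.1. A deposited table holds the authors' log2 values. Set against the scanner values of bright spots, its rows matched by spot row number (r = -0.998 to -1.00, slopes -1.01 to -1.03), so it runs as reference over forskolin. Column medians were 0.0067 to 0.012, 170 non-control spots were absent, and no source used here says how it was normalized. The submitters' processing notes name limma.

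Intensities were corrected by normexp (offset 50) and loess within each array in R 4.3.3, using limma 3.58.1 and data.table, version 1.17.8, with control spots at weight 0 and flagged outliers left out. Spots of a probe were averaged, and probes well above background in green or in red on all 3 arrays of 1 time point kept (20631 probes, 17803 genes). Group means were fitted with lmFit and eBayes over all 12 arrays, with 8 residual degrees of freedom. The fit and its direction were tested on simulated data. Genes of the lists were named by the largest changes at 48 h, 3 for each list, and genes like a member by the highest Pearson correlation. The genes most like Dpysl2 and the sequence of the tau probe are not reported here. The 10 genes and the lists were chosen with earlier results of these data known. Names were updated through RefSeq (GRCr8): 10735 probes matched by accession, 91 by another accession, 3703 by a synonym, 5571 had a current symbol and 20912 kept the file's name. Precision is limited by the number of arrays. Alternatives covered background, normalization, filter, choice of probe, a block for the slide, the authors' values and leaving out each array.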

Additional observations from a re-analysis of the deposited data

Results flagged for a closer look

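The results listed here are those in which the ratio of forskolin-treated cells over the reference differed between 2 neighbouring time points by a test of the difference itself (limma, adjusted p under 0.05), 15 of 30 steps. For 4 h against 2 h these were Mapt (-0.34), Map1b (-0.26) and Dpysl2 (-0.24). For 24 h against 4 h they were Mapt (1.71), Map1b (0.77), Map2 (0.21), Tubb3 (0.51), Stmn1 (-0.80) and Dpysl2 (0.37). For 48 h against 24 h they were Map1b (0.28), Tubb3 (0.27), Stmn2 (0.80), Stmn4 (0.49), Dcx (0.48) and Dpysl2 (0.35). The values are differences of mean log2 ratios of 3 arrays each. Position on the slide went with time, and position and time cannot be told apart.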

How the results depend on the processing

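Most values of the 10 genes kept direction and call when the processing changed. Of 70 values (10 genes, 4 comparisons and 3 steps), 64 did so with no background correction, 63 with offset 0, 62 with the processed signals, 70 with the filter on all 12 arrays, 63 with no filter and 66 with the authors' deposited values. With each probe tested on its own 69 did, but the brightest probe still stood for each gene there. Its values were the same and only the p-value could change, so that count does not compare the probes of a gene. Over the 840 values with 1 array left out, 782 did and 0 were called and reversed. An array of a time point outside a comparison does not enter its means. Leaving such an array out could move only the p-value, so many of the 840 values could not change sign.

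Median centring kept 36 of 70. It called 13741 genes at 2 h (loess 5042), 13895 at 4 h (8834), 356 for 4 h against 2 h (2783), 3358 for 24 h against 4 h (6896), 278 for 48 h against 24 h (2633) and 4528 in the F test (9490). Of the 10 genes it called 8 lower at 2 h (3), 0 higher at 4 h (1), 1 higher and 7 lower at 24 h (2 and 2), 1 higher and 6 lower at 48 h (8 and 1), 0 lower for 4 h against 2 h (3) and 1 higher for 48 h against 24 h (6). The called values that reversed were Stmn3 at 4 h (-1.11), Tubb3 at 24 h (-0.63), and at 48 h Map1b (-0.97), Tubb3 (-0.42), Stmn2 (-0.53), Stmn3 (-0.94) and Dpysl2 (-0.96). Higher genes made up 1.64%, 2.36%, 4.14% and 5.48% of those called at 2, 4, 24 and 48 h, against 35.3%, 39.3%, 45.2% and 47.0% with loess, and 79.5% against 54.1% for 24 h against 4 h. The arrays have no dye swap, and the cause was not tested.

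Taking the mean of kept probes, which mixes probes that disagree, kept 59 of 70 and reversed Map1b at 2 h (0.00063) and Stmn1 at 4 h (0.043). For 4 h against 2 h, 1 of the 10 was called lower in place of 3 with this mean and with no filter (Mapt in both), and with offset 0, where all 3 were lost and Map2 was called (-0.62, adjusted p = 0.041). At 4 h, 0 were called higher in place of 1 with no filter and with the authors' values. With 1 array left out, genes called ranged from 2803 to 5515 at 2 h, the lowest without replicate 3 at 2 h and 3172 without replicate 2. Over the 10 genes the ranges were 0 to 1 higher at 2 h (1 without replicate 1 at 2 h), 0 to 1 higher at 4 h and 0 to 4 lower for 4 h against 2 h.

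The replicate number is also the slide, per the file headers. Deviations of same-numbered arrays correlated at 0.053 to 0.47 over 18 pairs (median 0.22), against a median of -0.21 over 36 pairs of different number, and 7 of 12 arrays correlated best with their own number. Arrays of slide 1 deviated together, at 0.32 to 0.47, while arrays of slides 2 and 3 also correlated across these slides, at up to 0.30. Not every pair of the same number passed 0.1. The deviations of a time point sum to 0, so the negative median is tied to the positive one. The fit without the block was kept. With the replicate number as a block, 69 of 70 values kept their call, and Stmn3 for 48 h against 24 h became called (0.18, adjusted p = 0.028). Dim probes (Map2, Stmn4, Dcx) lie near background, where the offset compresses ratios.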
